A study of Caenorhabditis elegans with 4 samples.

Results

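The numbered col genes of the nematode Caenorhabditis elegans are collagen genes known only by the class name col and a number. They were taken as every row of the deposited tables whose gene name is col, a hyphen and a number, which gave 159 genes of 46904. RNA was sequenced from whole wild-type hermaphrodites of strain Bristol N2, about 200 worms in each group. One group was fed Escherichia coli OP50, the usual laboratory food, and the other is labelled OP50 + MH-1, for a bacterium of the lactic acid group, Lactiplantibacillus sp. MH-1, with 2 libraries each. The labels conflict on age and feeding, since the design text has worms 4 days old fed for 1 day and the treatment text has worms 1 day old cultured for 2 days. Both texts name MH-1 without OP50. The count column of each of the 4 tables is headed with the name of the other group than the sample title. Groups here follow the titles, so "rose" means higher in the libraries titled for MH-1, and every direction turns round if the column headers are right. Nothing in the labels says that the replicates were separate cultures, so a p-value here reflects only how far these libraries spread, and that spread may be technical.

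Cuticle collagens are short secreted proteins built of Gly-X-Y repeats that wind into helices of 3 chains. The epidermis makes them, prolyl 4-hydroxylases and other enzymes of the endoplasmic reticulum modify them, and they are cross-linked outside the cell into the cuticle. A new cuticle is made before every molt, so many of these genes are transcribed in pulses in embryos and larvae, and different genes serve larvae, dauer larvae and adults. In the deposited annotation 155 of the 159 genes carry the term "collagen trimer" and 140 carry "structural constituent of cuticle". Ensembl release 115 lists 156 as protein coding and 3 as pseudogenes, namely col-66, col-136 and col-182. Their exons summed to a median of 1006 bases, from 465 to 2588, and 120 genes had at most 3 separate exon blocks.

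The libraries held between 15771890 and 21572225 assigned reads. Levels are given as CPM, which are read counts scaled to a common library size, with the sizes adjusted by the TMM method, and genes are compared with each other only per kb of exon. Values of 4 libraries are given in the order OP50 replicate 1, OP50 replicate 2, OP50 + MH-1 replicate 1, OP50 + MH-1 replicate 2. Markers of other stages differed between the groups: the 13 genes of larval molting summed to 117, 77.5, 436 and 307 CPM, and the 15 embryo genes to 231, 202, 386 and 349 CPM. None of these markers was at 0 in all libraries. The sums hide differences between genes. Log2 fold changes ran from -0.23 (nas-37) to 3.19 (ptr-4) in the molting list and from -0.17 (end-1) to 3.27 (hch-1) in the embryo list. They were above 0 in 12 of the 13 molting genes and 12 of the 14 tested embryo genes, against 50.4% of all tested genes. The 12 oocyte genes summed to 12063, 11532, 10423 and 10398 CPM. Both OP50 + MH-1 libraries were below both OP50 libraries for 11 of the 12, a pattern seen in 21.6% of all tested genes. Their log2 fold changes were small, with a median of -0.15, and none of the 12 passed in the edgeR fit reported here. With DESeq2 1 of the 12 fell, as did 1 with edgeR and no low-count filter. The 10 intestine genes, yolk proteins among them, summed to 64641, 64084, 43219 and 72051 CPM, so that the OP50 + MH-1 libraries were the extremes. Of their log2 fold changes 1 was above 0, that of elt-2 (0.39). Both OP50 + MH-1 libraries were below both OP50 libraries for 3 of the 10 and above for 1. The gut protease gene cpr-1 was the 1 gene of this list that fell (edgeR adjusted p = 0.00313). In RNA of whole worms, fewer cells or animals of a stage and less RNA per cell cannot be told apart.

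Expression was concentrated in a minority of the genes. The 22 genes with more than 5000 reads held 98.1% of all reads of the 159 genes, and a gap set them apart, since the last of them had 5308 reads and the next gene 1477. This division was made after the counts were seen. The highest level was that of col-122, with 2151, 1608, 2447 and 2104 CPM per kb. col-119 followed with 2069, 1652, 2000 and 1985, and col-106 with 1767, 1378, 2038 and 1804 CPM per kb. These 3 overlapped with one another in level over the libraries. Below them came col-101, col-181, col-140, col-143, col-178, col-95 and col-184, with mean levels from 1672 to 717 CPM per kb, and these 10 genes held 82.7% of the reads.

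The stage at which a few of the genes are made is known. col-19, the usual marker of the adult cuticle, was the 14th of the 159 genes by level, with 252, 223, 243 and 270 CPM per kb. col-7, also an adult collagen, had 0, 1, 1 and 6 reads. The dauer collagen col-2 had 6, 7, 7 and 5 reads, and no row was named col-6, the other dauer gene listed.

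**Figure D1:**
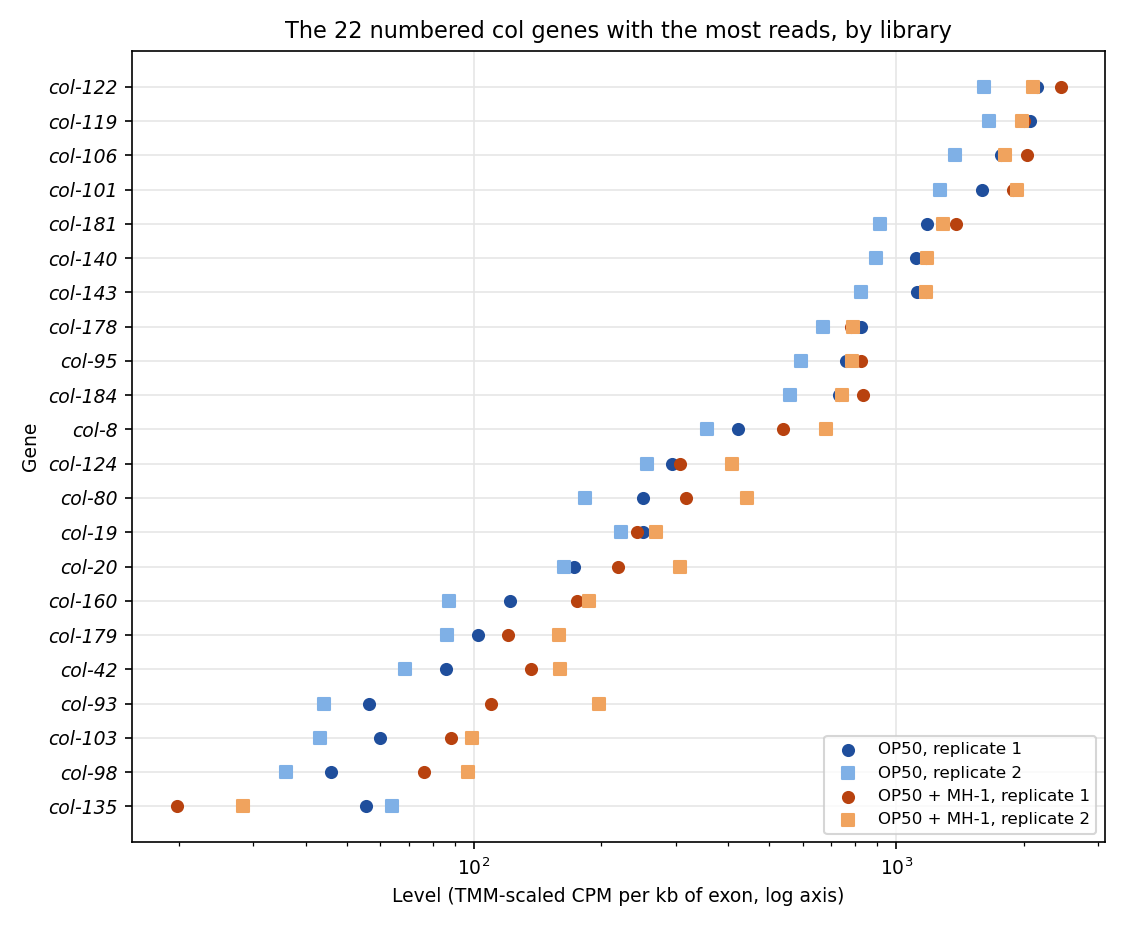
Level of the 22 numbered col genes with the most reads, in CPM per kb of exon on a log axis, with 1 point for each of the 4 libraries. OP50 replicate 2 (light blue squares) is the lowest point for 21 of the 22 genes; the exception is col-135, where both OP50 + MH-1 points lie below both OP50 points.

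Together the 159 genes took 1.54% and 1.25% of the assigned reads in the OP50 libraries and 1.81% and 1.76% in the OP50 + MH-1 libraries. The 95% Wilson intervals were 1.53% to 1.54%, 1.24% to 1.25%, 1.80% to 1.82% and 1.75% to 1.76%, and they cover counting error only. Both OP50 + MH-1 libraries were above both OP50 libraries, and OP50 replicate 2 was lowest. The means were 1.39% ± 0.206 and 1.78% ± 0.0353 (SD, n = 2), and the two-sided exact permutation test gave p = 0.33, the smallest value that 2 against 2 allows. The difference of 0.391 percentage points became 0.245 when OP50 replicate 2 was left out and 0.536 when OP50 replicate 1 was.

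Of the 159 genes 85 had enough reads to be tested, and 8 rose and 1 fell in the libraries titled for MH-1 (edgeR quasi-likelihood test, Benjamini-Hochberg adjusted p under 0.05 over 12640 genes). Among all tested genes 1.82% rose and 0.332% fell. A gene could pass the read filter through 1 group alone, so these 85 do not stand for all 159. The genes that rose were col-121, col-93, col-43, col-99, col-98, col-42, col-103 and col-160, by 1.73-fold to 17.6-fold, and the gene that fell was col-135, by 2.47-fold. Leaving out a library leaves its partner alone in its group, which is then assumed to vary like the other group. The number of genes called then changed, among all genes as well as among these. Beside the calls with all 4 libraries, 6 of the 13 molting markers and 3 of the 14 tested embryo markers rose (edgeR). With robust estimation of the dispersion the molting count was 0 and the embryo count was 1. The markers' part in the collagen results was not tested.

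**Figure D2:**
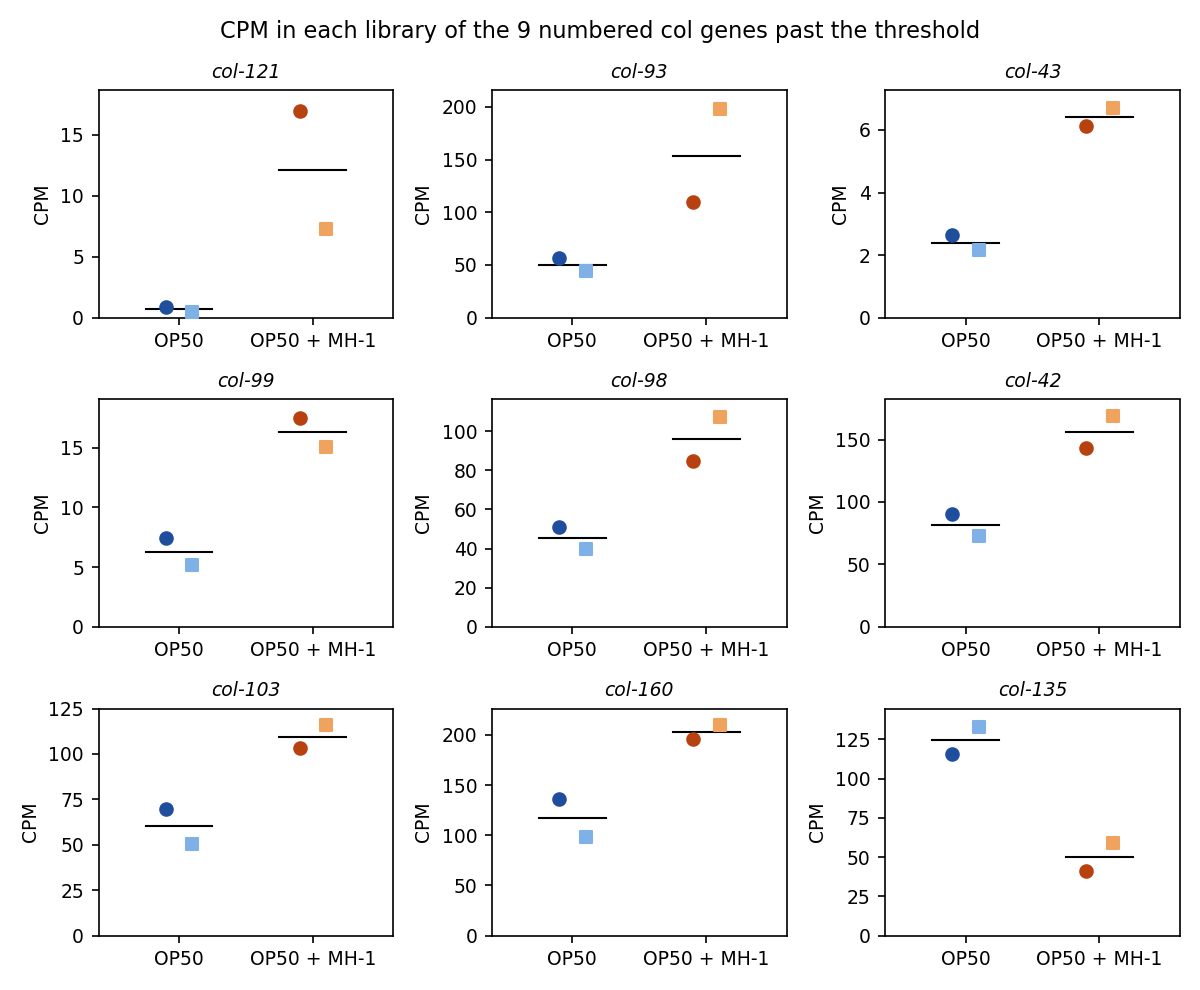
CPM in each library of the 9 numbered col genes with an adjusted p under 0.05, 1 panel per gene, with axes that start at 0. Circles are replicate 1, squares are replicate 2 and lines are means of n = 2; the groups do not overlap in any of the 9 panels, and the pairs lie farthest apart within a group in col-121 and col-93 with OP50 + MH-1.

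The largest rise was that of col-121, a collagen annotated to the cuticle (chromosome IV, 9394934 to 9396218 on the ce11 build, minus strand, 4 exon blocks). It stood at 0.897 and 0.453 CPM in the OP50 libraries, from 16 and 8 reads, and at 16.9 and 7.24 CPM in the OP50 + MH-1 libraries, from 273 and 157 reads. With 8 reads OP50 replicate 2 was under the minimum count of 10. The gene therefore passed the read filter only through the OP50 + MH-1 libraries, where it was high, and its place as the largest rise carries that limit. The groups were far apart, and the OP50 + MH-1 libraries also differed from each other by more than 2-fold. The log2 fold change was 4.14 ± 0.53 (SE, edgeR adjusted p = 0.0188), and 3.42 without OP50 + MH-1 replicate 1. With limma-voom the adjusted p was 0.123.

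col-93, also annotated to the cuticle and among the 22 abundant genes, lies on chromosome III (10984555 to 10985609, minus strand). It stood at 56.4, 44.0, 110 and 198 CPM, and the lower OP50 + MH-1 library was above the higher OP50 library. The log2 fold change was 1.62 ± 0.26 (SE, edgeR adjusted p = 0.0330). The call was lost with robust estimation of the dispersion (adjusted p = 0.249) and with limma-voom (0.0563). The neighbours of col-93 on the same strand did not pass: col-94 stood at 4.60, 3.11, 5.70 and 8.49 CPM (0.88 ± 0.31, adjusted p = 0.270), and col-92 at 1.63, 0.113, 0.929 and 1.11 CPM.

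The calls of col-42 and col-98 held in all 13 other settings tried. col-42 (chromosome V, 18638484 to 18639591, plus strand) stood at 90.4, 72.4, 143 and 169 CPM, a log2 fold change of 0.94 ± 0.13 (SE, edgeR adjusted p = 0.0214). col-98 (chromosome III, 13018935 to 13020226, plus strand) stood at 51.0, 39.9, 84.7 and 107 CPM, a log2 fold change of 1.08 ± 0.15 (adjusted p = 0.0227). In both, the gap between the groups was wider than the gap between the libraries of either group.

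col-103 and col-160, both annotated to the cuticle, rose by less than 2-fold. col-103 (chromosome IV, 762416 to 763680, minus strand) stood at 70.0, 50.5, 103.4 and 116 CPM, a log2 fold change of 0.86 ± 0.15 (SE, edgeR adjusted p = 0.0403). col-160 (chromosome V, 13200982 to 13202192, minus strand) stood at 136, 98.1, 196 and 210 CPM, a log2 fold change of 0.79 ± 0.14 (adjusted p = 0.0471). In each the OP50 libraries lay farther apart than the OP50 + MH-1 libraries. When OP50 + MH-1 replicate 1 or replicate 2 was left out, the adjusted p was 0.0625 or 0.0973 for col-103 and 0.0832 or 0.102 for col-160. With robust estimation it was 0.0697 for col-103 and 0.0882 for col-160, and for col-160 it was 0.0503 on DESeq2 size factors and 0.0563 by limma-voom.

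col-99 differs from the others in structure, since it encodes a collagen anchored in the plasma membrane, and its deposited annotation includes the neuromuscular junction. It is the longest of the 159 genes by summed exons, with 2588 bases in 19 exon blocks (chromosome IV, 138346 to 147919, minus strand). It stood at 7.46, 5.15, 17.5 and 15.1 CPM, so that each OP50 + MH-1 library was more than 2-fold above each OP50 library. The log2 fold change was 1.37 ± 0.22 (SE, edgeR adjusted p = 0.0334), and leaving out OP50 + MH-1 replicate 1 or replicate 2 gave an adjusted p of 0.120 or 0.0599.

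col-43, annotated to the cuticle, was the lowest in level of the genes that rose, at a mean of 4.31 CPM per kb (chromosome V, 8049744 to 8050893, minus strand). It stood at 2.64, 2.15, 6.13 and 6.69 CPM, with libraries of a group close together. The log2 fold change was 1.42 ± 0.27 (SE, edgeR adjusted p = 0.0495). Leaving out OP50 replicate 2 gave an adjusted p of 0.0864, and leaving out OP50 + MH-1 replicate 1 or replicate 2 gave 0.132 or 0.126. It was 0.0520 on DESeq2 size factors, 0.0673 by limma-voom and 0.0563 with legacy=FALSE in the edgeR fit.

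col-135, the gene that fell, carries the collagen trimer term but not the cuticle term (chromosome IV, 15129666 to 15131797, minus strand, 2087 bases of exon). It stood at 116 and 133 CPM in the OP50 libraries and at 41.2 and 59.1 CPM in the OP50 + MH-1 libraries, and it was the 1 abundant gene whose highest library was OP50 replicate 2. The log2 fold change was -1.31 ± 0.16 (SE, edgeR adjusted p = 0.0168). The call held in all 13 other settings, with values from -1.59 to -1.07 when 1 library was left out.

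**Figure D3:**
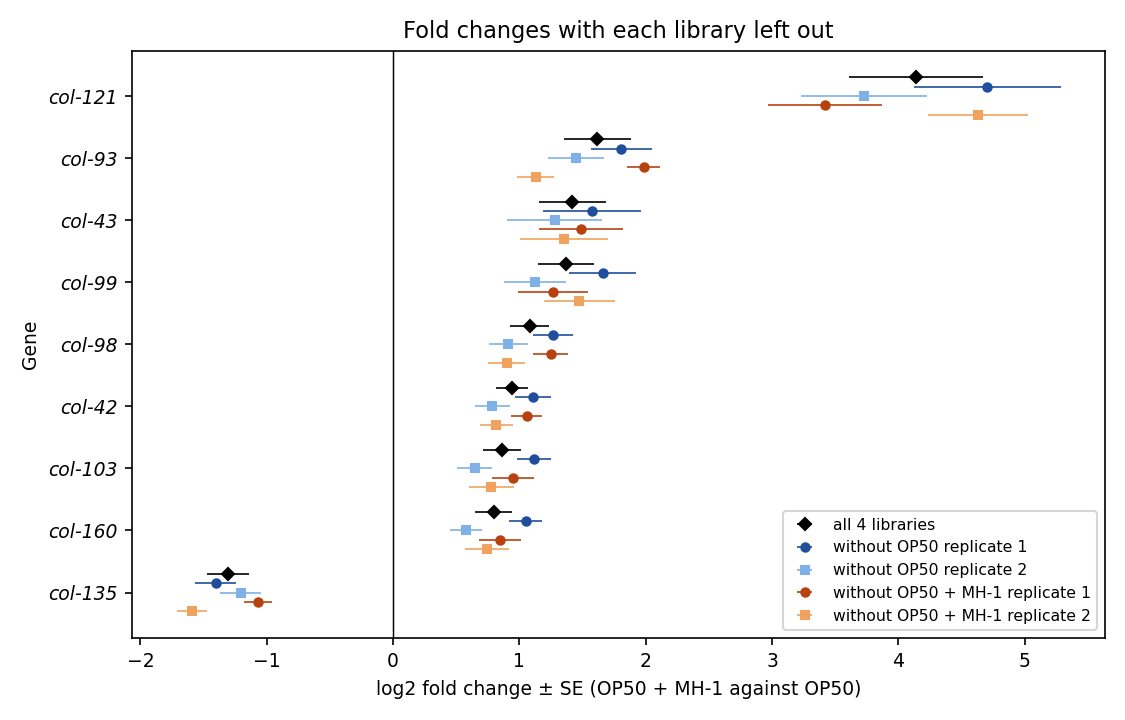
Log2 fold change ± SE of the 9 called genes with all 4 libraries (black diamonds) and with each library left out in turn (coloured points). Every point of the 8 genes that rose is above 0 and every point of col-135 is below 0; the range is widest for col-121, from 3.42 to 4.70.

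None of the 10 genes of highest level was among the 9 called. Their log2 fold changes were between 0.07 and 0.42, with a median of 0.27, SE between 0.117 and 0.166 and a smallest adjusted p of 0.239 (edgeR). The largest was that of col-101, at 1766, 1402, 2090 and 2138 CPM (0.42 ± 0.14), with an adjusted p of 0.0242 by DESeq2 and 0.00212 with edgeR and no low-count filter. Without that filter col-181 (0.0110) and col-184 (0.0448) passed too. In col-119, at 2048, 1636, 1980 and 1965 CPM, the OP50 libraries were the highest and the lowest, and its log2 fold change of 0.10 ± 0.14 was -0.06 without OP50 replicate 2. col-178, at 794, 642, 752 and 758 CPM, had the same order of extremes (0.07 ± 0.12, and -0.08 without OP50 replicate 2). The other 7 of the 10 apart from col-122 had both OP50 + MH-1 libraries above both OP50 libraries.

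Of the 12 abundant genes below them 6 passed, and 11 of the 12 log2 fold changes were above 0 (median 0.72). Over all 22 abundant genes 5 rose and 1 fell. Their median log2 fold change was 0.37, against 0.53 with OP50 replicate 1 left out and 0.22 with OP50 replicate 2 left out. Genes that missed the threshold here included col-8, at 388, 328, 496 and 626 CPM (0.65 ± 0.14, edgeR adjusted p = 0.0731), and col-20, at 183, 173, 232 and 325 CPM (0.65 ± 0.15, 0.0992). col-80 stood at 261, 190, 330 and 459 CPM (0.81 ± 0.19, adjusted p = 0.106) and col-179 at 99.5, 83.9, 117 and 154 CPM (0.57 ± 0.14, 0.126). In all 4, which were singled out after their values were seen, OP50 + MH-1 replicate 2 was highest and OP50 replicate 2 lowest. The adult collagen col-19 overlapped between the groups, at 321, 285, 310 and 344 CPM (0.11 ± 0.09, adjusted p = 0.664), and its exons overlap those of ZK1193.2.

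**Figure D4:**
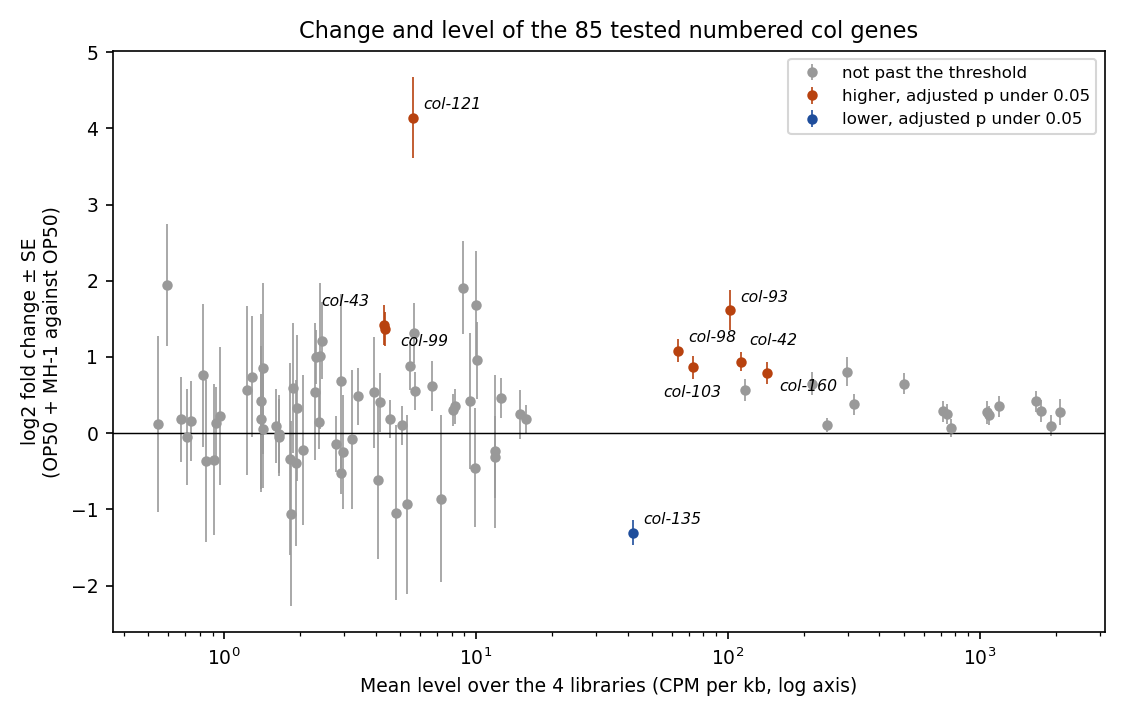
Log2 fold change ± SE against the mean level over the 4 libraries (CPM per kb, log axis) for the 85 tested genes. The 10 genes at the far right lie between 0.07 and 0.42, most called genes lie near the middle of the level axis, and SE is widest among uncalled genes at the left.

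Over the 85 tested genes 64 log2 fold changes were positive and the median was 0.29, where the median of all tested genes was 0.00267 and 50.4% were positive. Both OP50 + MH-1 libraries were above both OP50 libraries in 30 of the 85 genes, a pattern seen in 24.4% of all tested genes. They were below in 2 genes, a pattern seen in 21.6% of all tested genes, and the other 53 genes overlapped. The separation lay with the abundant genes: it was upward in 17 of the 22 and in 13 of the 63 others. Leaving out a library also changes which genes pass the read filter: the median was 1.27 over the 97 genes tested when OP50 replicate 1 was left out. It was 0.08 over 99 genes when OP50 replicate 2 was, and 0.08 over 92 genes when OP50 + MH-1 replicate 1 was. The lowest library was OP50 replicate 2 in 72 of the 85 genes, and in 26.7% of all tested genes.

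Among the 63 less abundant genes the libraries of one group often differed more than the groups did. In 31 of them OP50 replicate 1 was at least 4 times OP50 replicate 2, which held for 1.23% of all tested genes, and the reverse held for none of the 85 and for 0.696% of all tested genes. The factor of 4 was set after the values were seen. The 31 genes summed to 189, 13.7, 135 and 51.1 CPM, where the gap between the OP50 sums follows from how they were chosen. In 20 of the 31 both OP50 + MH-1 libraries lay between the OP50 libraries, and in 27 OP50 + MH-1 replicate 1 was above replicate 2. Their mean levels were at most 11.9 CPM per kb, and OP50 replicate 2 held between 0 and 46 reads of each. None of the 31 passed the test of the groups. Genes chosen for a wide spread within OP50 have a wide SE, so no conclusion is drawn from this. The falling order OP50 replicate 1, OP50 + MH-1 replicate 1, OP50 + MH-1 replicate 2, OP50 replicate 2 was that of 24.7% of the 85 genes and of 3.13% of all tested genes. It held for 21 of the 85, of which 20 were less abundant genes. This order was singled out after the values were seen. It places the OP50 libraries in the same direction as the choice of the 31 genes, so it is not a separate result.

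**Figure D5:**
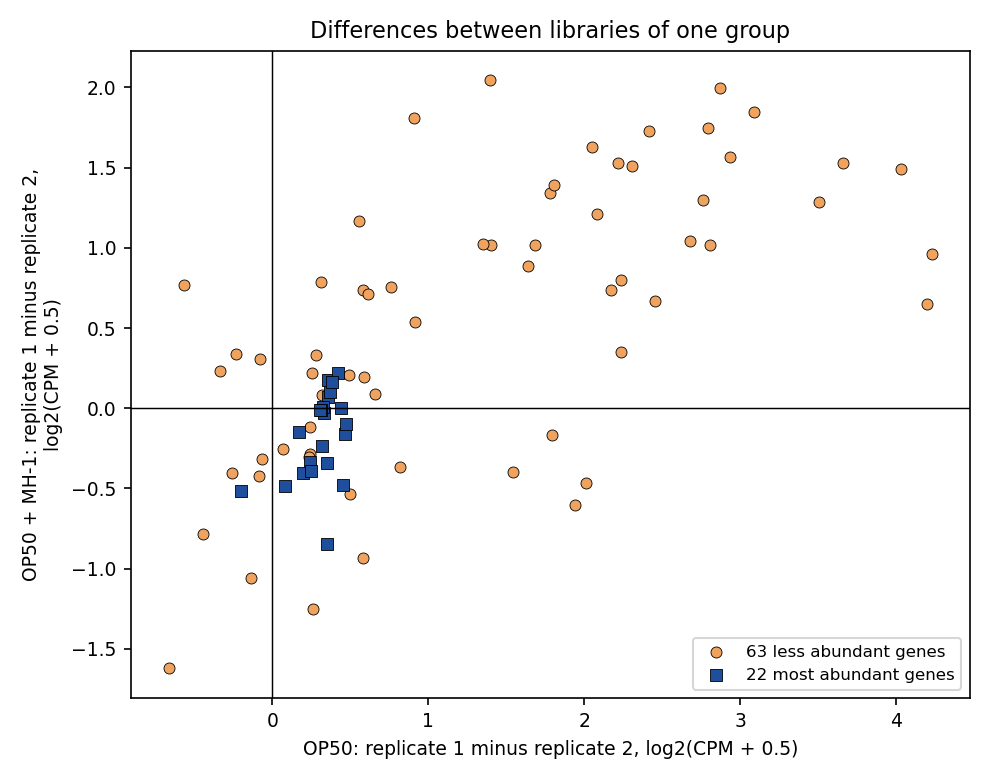
Replicate 1 minus replicate 2 on the log2(CPM + 0.5) scale, for OP50 on the horizontal axis and OP50 + MH-1 on the vertical axis, with 1 point for each of the 85 tested genes. The 22 abundant genes (squares) lie near the centre, while many of the 63 others (circles) lie far to the right; OP50 replicate 1 was the higher OP50 library in 53 of the 63.

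col-17, which lacks the cuticle term, is an example of this spread, with 247, 5, 70 and 56 reads and 13.8, 0.283, 4.34 and 2.58 CPM. Its log2 fold change was -1.04 ± 1.14 (SE, edgeR adjusted p = 0.757) with all libraries, 3.57 ± 0.71 without OP50 replicate 1 and -2.02 ± 0.32 without OP50 replicate 2. col-73 stood at 13.2, 0.340, 5.57 and 1.66 CPM, with values of -0.93, 3.36 and -1.91 in the same 3 fits. col-90 stood at 20.5, 0.623, 7.93 and 3.83 CPM, with values of -0.86, 3.21 and -1.82, and its exons overlap let-754 on the other strand. In all 3 genes the OP50 libraries were the extremes, and the sign of the difference turned with the OP50 library kept. Each of the 3 passed in both of those fits, upward without OP50 replicate 1 and downward without OP50 replicate 2, and passed downward with no low-count filter. col-169, at 4.54, 0.226, 2.11 and 0.277 CPM, had a log2 fold change of -1.06 ± 1.21 (adjusted p = 0.769) that was 2.31 without OP50 replicate 1.

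Other less abundant genes had smaller gaps between the OP50 libraries than those. col-118, the highest of the 63 at a mean of 15.7 CPM per kb, stood at 15.9, 13.02, 18.5 and 14.5 CPM (0.19 ± 0.18, edgeR adjusted p = 0.710). col-34 stood at 5.27, 4.13, 5.202 and 4.89 CPM (0.10 ± 0.25, adjusted p = 0.910), and in both genes the groups overlapped. col-139 stood at 4.15, 2.60, 5.57 and 11.1 CPM (1.31 ± 0.39, adjusted p = 0.189) and col-150 at 1.68, 1.36, 2.66 and 3.41 CPM (adjusted p = 0.266), with both OP50 + MH-1 libraries above both OP50 libraries. col-153, at 4.60, 4.36, 2.79 and 3.41 CPM (-0.52 ± 0.27, adjusted p = 0.458), was the 1 gene besides col-135 with both below, and its exons overlap F17C11.4 on the same strand. These 5 were singled out after their values were seen.

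The largest positive values without a call were those of col-182, col-74 and col-165. col-74 stood at 5.44, 2.66, 24.2 and 6.55 CPM (1.91 ± 0.61, edgeR adjusted p = 0.218), and col-165 at 7.51, 2.55, 26.5 and 6.04 CPM (1.68 ± 0.72, adjusted p = 0.359). In both, OP50 + MH-1 replicate 1 stood more than 3 times above each other library. Without it the log2 fold changes were 0.70 and 0.27. Both genes passed without OP50 replicate 1 (0.0143 and 0.0184) and with no low-count filter, and col-74 passed without OP50 + MH-1 replicate 2 (0.0332). The pseudogene col-182 had 6, 1, 14 and 15 reads (1.94 ± 0.80, adjusted p = 0.347), and it passed the read filter only through the OP50 + MH-1 libraries.

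Some of the less abundant genes have known regulators. DBL-1, a BMP-like ligand that promotes body growth, is known to act on col-41, col-141 and col-142. col-41 stood at 12.9, 0.679, 6.57 and 2.40 CPM, with a log2 fold change of -0.62 ± 1.03 (SE, edgeR adjusted p = 0.850) that became 2.69 with OP50 replicate 1 left out and -1.55 with OP50 replicate 2 left out, past the threshold both times. col-142 was even across the libraries, at 8.24, 6.91, 8.36 and 10.3 CPM (0.30 ± 0.21, adjusted p = 0.589), and col-141, its neighbour, had 1 read in all.

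col-10, col-13 and col-120 are known from work on long-lived worms, in which the factor SKN-1 raises collagen expression. col-10 stood at 19.3, 2.60, 11.1 and 5.12 CPM (-0.45 ± 0.78, edgeR adjusted p = 0.856) and col-13 at 1.85, 0.113, 0.495 and 1.01 CPM (-0.35 ± 0.99, 0.925). In both, OP50 replicate 1 was highest and OP50 replicate 2 lowest. col-120 had 7, 11, 6 and 7 reads and was not tested. col-13 lies beside its near copy col-12, and the sources used here do not say how reads matching both were counted.

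The 74 genes left untested had at most 52 reads each over the 4 libraries, with a median of 9. They summed to 12.6, 7.58, 20.2 and 11.6 CPM, again with OP50 replicate 2 lowest. Of the 159 genes 6 had no read at all and 13 had 1 to 3 reads. A count of 3 corresponds to between 0.138 and 0.186 CPM in these libraries, and a level below that rests on very few reads.

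The genes lie on all 6 chromosomes, with 42 on IV, 31 on V, 28 on X, 24 on II, 22 on I and 12 on III. Reads were uneven between them: the 42 genes on IV held 587970 reads and the 22 genes on I held 951. The called genes lie on IV, with 4, V, with 3, and III, with 2. Of the 159 genes 50 form 29 pairs of neighbours within 5000 bases, and in 14 pairs the mean levels per kb differed at least 10-fold. On chromosome II, col-20 lies between col-17 and col-73, with a mean of 216 CPM per kb against 4.81 and 5.32. On chromosome V, col-143 stood at 1071 CPM per kb beside col-142 at 8.09 and col-141 at 0.0114. Both genes of a pair were tested in 16 pairs, and their log2 fold changes had the same sign in 8. The exons of 39 genes, 14 of them tested, overlap another gene, and none of the 9 called genes is among them.

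Among the cuticle collagens named for body shape, of 20 listed genes 15 were tested and 6 rose, where 1.82% of all tested genes rose. The 6 were dpy-2, dpy-7, dpy-10, dpy-14, dpy-17 and sqt-3. dpy-3 missed the threshold, at 2.24, 1.64, 26.9 and 7.52 CPM (3.13 ± 0.60, edgeR adjusted p = 0.0540). dpy-8 went the other way, at 1.68, 1.19, 0.434 and 0.369 CPM (-1.83 ± 0.52, adjusted p = 0.165). dpy-17 stood at 64.3, 47.0, 561 and 230 CPM (2.83 ± 0.40, edgeR adjusted p = 0.0227) and dpy-7 at 2.36, 3.62, 39.0 and 14.5 CPM (3.15 ± 0.49, 0.0302). In all 6 that rose, OP50 + MH-1 replicate 1 was more than 2-fold above replicate 2, which among the 8 numbered col genes that rose held for col-121 alone. In 7 of the 15 OP50 replicate 1 was instead at least 4 times OP50 replicate 2, as in sqt-1, at 8.69, 0.113, 1.67 and 1.57 CPM (-1.44 ± 1.20, adjusted p = 0.658), which was singled out after its values were seen. The median of the 15 was -0.46, and it was 3.07 without OP50 replicate 1 and 1.73 with limma-voom. Over the 17 genes tested without OP50 replicate 2 the median was -0.62. The number that rose was 2 with limma-voom, 0 with robust estimation and 7 with DESeq2. With no low-count filter 7 rose and 3 fell of 19 tested. Over all genes these 4 settings called 162, 267, 464 and 1112 in either direction, against 272 in the reported fit.

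Of the enzymes and partners that process or cross-link collagen, 19 of 23 were tested and none passed in the edgeR fit used here. An unadjusted p under 0.05 was found for 8, a count given without the share over all tested genes. In other fits of all 4 libraries 4 rose with DESeq2, 7 of 23 with edgeR and no low-count filter, and 2 with edgeR on total counts. These fits also called more genes over the whole set, at 464, 1112 of 19744 and 383 in either direction, against 272 in the reported fit. The median log2 fold change of the processing genes tested was 0.25 with OP50 replicate 1 left out and 0.12 with OP50 replicate 2 left out. phy-2, a prolyl 4-hydroxylase subunit, stood at 22.9, 12.2, 80.8 and 34.4 CPM (1.71 ± 0.43, edgeR adjusted p = 0.125). dpy-18, the other main subunit, stood at 38.5, 33.6, 63.1 and 49.0 CPM (0.64 ± 0.14, 0.0892), and pdi-2, their partner in the enzyme, at 489, 494, 680 and 590 CPM (0.37 ± 0.10, 0.136). These 3 were chosen after their values were seen, and in each both OP50 + MH-1 libraries were above both OP50 libraries. The median of the 19 was 0.20.

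Among 17 regulators of cuticle genes nhr-25, a nuclear receptor of the epidermis that acts in molting, was the 1 gene that rose. It stood at 5.94, 5.43, 16.5 and 15.9 CPM (1.51 ± 0.17, edgeR adjusted p = 0.0142), with the libraries of each group close together. The ligand gene dbl-1 stood at 6.22, 5.83, 5.33 and 5.40 CPM (-0.17 ± 0.22, adjusted p = 0.804). None of the 3 basement membrane collagen genes, emb-9, let-2 and cle-1, passed with edgeR or DESeq2, and none had an unadjusted p under 0.05 with edgeR; their median was 0.10.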

How the data were processed

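Poly(A) RNA of whole worms was sequenced with a stranded kit, per the labels. Each deposited table holds raw read counts per gene, made by the authors; the submitters' processing notes list featureCounts 2.0.1, STAR 2.7.10a, and the read trimmers cutadapt 3.7, Trim Galore 0.6.7 and Trimmomatic 0.39, with the builds ce11 and WBcel235. The sources used here do not give their order, the strand setting or the counting of reads with several matches. Libraries were grouped by title, against the column headers, and every pair of libraries differed beyond sampling noise (chi-square over its degrees of freedom 10.1 or more).

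From the counts, edgeR 4.0.16 (R 4.3.3) was fitted to all genes kept by filterByExpr (minimum count 10, minimum total 15), with TMM scaling, glmQLFit, glmQLFTest and group as the only term. SE is the log2 fold change divided by the square root of F. The summed share was compared by an exact permutation test (scipy 1.17.1). Alternatives used DESeq2 1.42.0 and limma 3.58.1, other filters and scalings, a replicate block and each library left out. Gene positions are from the deposited tables, and gene types from Ensembl release 115. Figures were drawn with matplotlib 3.10.9.

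Genes were named by rule: called genes, the 10 of highest level per kb, the 5 largest and 5 lowest log2 fold changes, the listed col genes, and called genes of other lists; those of the marker lists are mostly counted only. Some genes were named outside this rule after their values were seen or as neighbours of named genes; the alternatives were recorded for genes under the rule. The members and lists were chosen with earlier results of these data known.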

Additional observations from a re-analysis of the deposited data

How the results depend on the processing

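The number of genes that rose, 8 in the reported fit, was 23 with no low-count filter, 4 with limma-voom, 5 with robust estimation and 0 at an adjusted p under 0.01, and it ranged from 5 to 27 with 1 library left out. The number that fell, 1, was 4 with no filter, 0 at an adjusted p under 0.01 and from 1 to 6 with 1 library left out. In the reported fit no gene of the 85 had an adjusted p under 0.01. Some did in other edgeR fits, such as col-135 with the replicate block (edgeR adjusted p = 0.00017). In the reported fit 22 had an unadjusted p under 0.05, a count given without the share over all tested genes. Of the other settings, DESeq2 gave 12 that rose, total-count scaling 12, DESeq2 size factors 6 and legacy=FALSE 7. Over all 12640 genes these settings called 464, 383, 254 and 243 in either direction, against 272 in the reported fit. Over all genes limma-voom called 162, robust estimation 267 and the fit with no low-count filter 1112 of 19744. With 1 library left out the number called over all genes changed as well. The changes in count were therefore not seen in the numbered col genes alone. The median log2 fold change, 0.29, ranged from 0.078 to 1.27 with 1 library left out and from 0.28 to 0.52 otherwise. The difference in summed share, 0.391 points, was 0.340 on TMM-scaled sizes and 0.194 without the 5 genes with most reads.

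With the replicate number as a block, 15 genes rose, among them all 8 of the reported fit, and 1 fell; over all genes 559 were called in place of 272. Genes named by rule that the block added were col-74 (adjusted p = 0.00501), col-165 (0.00442), col-101 (0.0365) and col-181 (0.0406), and 6 of the 19 processing genes rose under it. Deviations of libraries with the same number had a correlation of 0.228 over all tested genes and 0.682 over the 85, a description over genes; with 2 pairs the number is not shown to pair the libraries.

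Genes named by rule whose sign turned were all uncalled in the reported fit. With limma-voom these were col-10 (0.0049), col-13 (0.57), col-17 (0.64), col-41 (0.30), col-73 (0.35) and col-90 (0.52), and with the replicate block col-13 (0.042). With 1 library left out the values ranged from -1.27 to 1.62 for col-10, -1.26 to 2.69 for col-13, -2.02 to 3.57 for col-17, -1.55 to 2.69 for col-41, -2.02 to 3.36 for col-73, -1.82 to 3.21 for col-90, -0.058 to 0.27 for col-119, -3.07 to 2.31 for col-169 and -0.076 to 0.23 for col-178. The cause was not tested. Over the genes named by rule and all settings, 342 values kept their sign and side of the threshold, 19 lost the call, 21 became calls with the same sign and 18 changed sign. Of the 18, 4 were calls: col-17, col-41, col-73 and col-90 without OP50 replicate 1. Each group has 2 libraries.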
